A study of Mus musculus with 8 samples.

Results

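Klf2, Klf4, Klf6, Maf, Mef2a, Mef2c, Spi1 and Cebpa are 8 transcription factor genes with known roles in macrophages, out of 18193 genes that had a probe set with a single gene symbol on these arrays. All 27 such probe sets of the 8 genes were taken, and the main one of each gene was that with the highest mean on the 8 arrays. Expression was measured on Affymetrix mouse arrays in RAW 264.7, an immortalised mouse macrophage line that was the only cell line used, so all groups share its background. The control group (C) received control treatment for 1 h, and the menthol group (M) received menthol for 1 h. The LPS group received control treatment for 1 h and then bacterial lipopolysaccharide, a trigger of macrophage activation, at 100 ng/ml for 6 h. The LPS+M group received menthol for 1 h and then LPS at 100 ng/ml for 6 h. Each group had 2 arrays. The sample labels leave the dose of menthol to the text of the study and do not say when the C and M cells were harvested. Where groups with and without LPS are compared, and in the interaction, LPS and a later harvest therefore cannot be told apart. The study asked how menthol changes gene expression in resting macrophages and in macrophages activated by LPS.

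PU.1, the product of Spi1, and C/EBP alpha, the product of Cebpa, are pioneer and lineage factors that open and maintain the enhancers of myeloid cells. Kruppel-like factors are zinc finger proteins that bind GC-rich promoter sequence. KLF2 is known to restrain monocyte activation, KLF4 is known for monocyte differentiation and alternative activation, and KLF6 for inflammatory gene expression. c-MAF, the product of Maf, is a basic leucine zipper protein known for interleukin-10 expression, and MEF2 proteins are MADS-box factors that bind an A/T-rich sequence and respond to MAP kinases and to class IIa histone deacetylases.

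Values are log2 signals, and a difference of 1 is a doubling. A gene was called where the limma adjusted p was under 0.05 and the fold change was at least 1.5, over the 8908 genes whose mean lay above 4.84, the mean of all probe sets. Klf2 and Cebpa were kept through only some of their groups, since each lay above 4.84 on 4 of 8 arrays, in 2 of 4 groups. The other 6 genes lay above it on all 8 arrays. Array medians ran from 2.99 to 3.04, and the 2 arrays of a group correlated at 0.9988 to 0.9994 over probe sets. All 10 macrophage markers (among them Adgre1, Csf1r and Cd68) lay above 4.84, and none of the measured T cell, B cell, fibroblast and epithelial markers did. Of 7 osteoclast markers, 3 did (Dcstamp, Mmp9 and Nfatc1). Of the 23 probe sets of the 8 genes above 4.84, 11 had their widest gap between duplicate arrays in the LPS group, 6 in LPS+M, 4 in C and 2 in M. The median gap was 0.13 in LPS, 0.18 in LPS+M, 0.097 in C and 0.13 in M. With 2 arrays a gap does not say which of them stands apart, so results that 1 array moves are given with and without it.

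The 8 genes were chosen with results of these arrays known, and are taken here as selected on their differences in the comparisons that use the control arrays. Those differences, those in LPS against M and the interaction of menthol and LPS (the difference in LPS+M against LPS minus that in M against C) are therefore given as a description with no p-value. Adjusted p-values are given for LPS+M against LPS and LPS+M against M, which were also known in part and are no independent support. In RNA from bulk cells, fewer cells that express a gene and less RNA in each cell cannot be told apart.

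**Figure D1:**
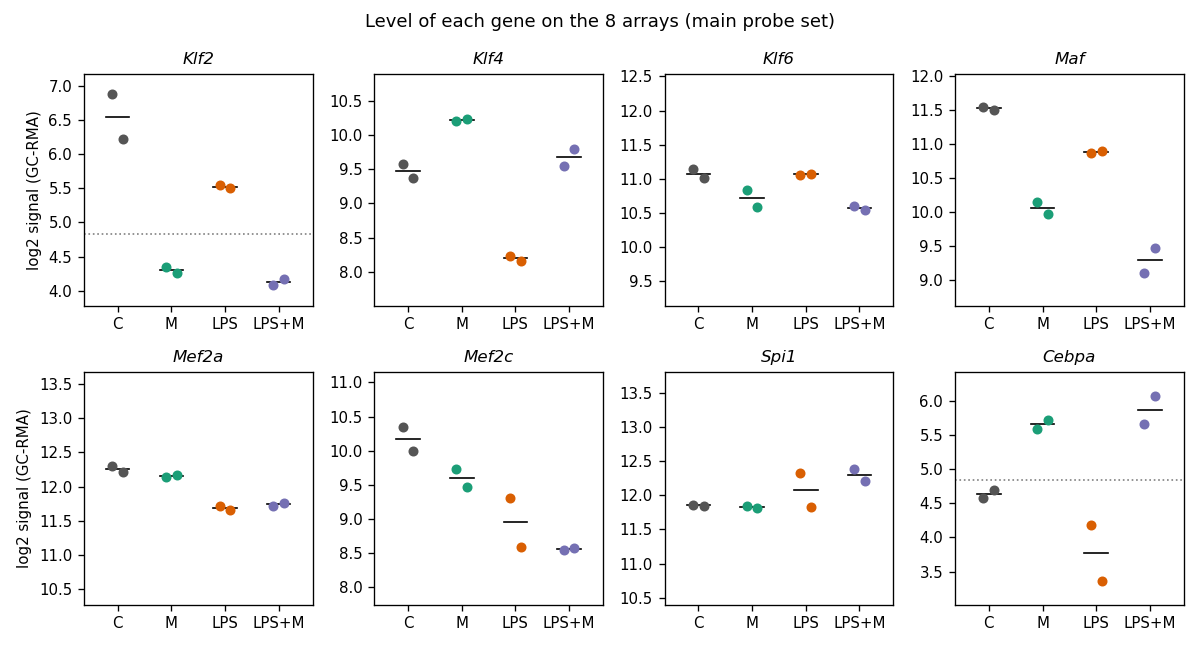
Level of each gene by its main probe set, as log2 signal (y axis, a span of 3.4 in every panel), on the 2 arrays of C, M, LPS and LPS+M (x axis). Points are arrays, black lines are group means and the dotted line is the mean of all probe sets, 4.84. Klf2 and Maf were lower and Klf4 and Cebpa higher with menthol, both without and with LPS, and Spi1 stayed between 11.82 and 12.38.

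Menthol moved 4 of the 8 genes past the thresholds without LPS, where 4.55% of all genes tested were called: Klf2 and Maf were lower, and Klf4 and Cebpa were higher. The same 4 were called in the same directions in LPS+M against LPS, a comparison that shares no array with the first, where 6.71% of genes were called. LPS alone lowered 5 of the 8 (Klf2, Klf4, Maf, Mef2c and Cebpa), where 6.13% of genes were called and 2.96% were called lower. The genes were chosen with these comparisons known in full or in part, so the counts describe them only. LPS+M against LPS is thus no independent support for M against C.

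Klf2 had the largest difference of the 8 genes in M against C. It measured 6.88 and 6.22 in C, 4.34 and 4.26 in M, 5.55 and 5.50 in LPS, and 4.08 and 4.17 in LPS+M. The groups did not overlap, and both groups with menthol lay under 4.84. Over all genes tested, the share with no overlap of 2 groups ran from 55.2% in LPS+M against M to 75.8% in LPS against M. A lack of overlap of 2 groups was thus common, and is given here and below as a description. The log2 difference in M against C was -2.25 ± 0.18 (SE). LPS alone gave -1.02 ± 0.18, and both treatments together gave -2.43 ± 0.18 against control. Klf2 fell by 1.40 ± 0.18 in LPS+M against LPS (limma, adjusted p = 0.00138), and with no filter on low values the adjusted p was 0.0117. LPS gave no call once menthol was present (LPS+M against M, -0.18 ± 0.18, adjusted p = 0.570, 95% interval -0.59 to 0.24). The menthol difference was smaller in size with LPS than without, by 0.85 ± 0.25, and this interaction was not called. It was 0.52 without C replicate 1, the higher of the C arrays, and 1.18, past the thresholds, without C replicate 2.

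Some promoter stretches that hold a searched motif near the start of a gene are shown, and not every match is printed. RefSeq windows of 300 bases on GRCm38.p6, from 250 before to 50 after a transcription start, were present for 6 of the 8 genes in 8 windows. The letters CTA and TAG 4 bases apart (MEF2), GAGGAAG (PU.1), TTGCNNAA (C/EBP), TGCTGA (MAF) and CCNCNCCC (KLF) were searched on both strands. Klf2 and Mef2a were the 2 genes with a MEF2 match, and 3.69% of all 32851 windows hold one. The Klf2 window also held 4 KLF matches. Of the Mef2c windows, 1 held a PU.1 match and another a MAF match. At least 1 match is held by 49.5% (KLF), 13.6% (PU.1) and 19.5% (MAF) of all windows. In the Klf2 promoter the MEF2 match starts 118 bases before the transcription start. The stretch below (chr8:72318912-72319061, plus strand) runs up to that start with the MEF2 match in capitals.
Klf2: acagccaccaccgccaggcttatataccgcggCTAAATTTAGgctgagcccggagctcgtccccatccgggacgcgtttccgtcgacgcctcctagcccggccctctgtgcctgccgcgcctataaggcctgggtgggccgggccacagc
MEF2 proteins are known activators of Klf2. The arrays did not measure binding, and a match is a description of the sequence only.

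Klf4 moved in opposite directions with menthol and with LPS. It measured 9.57 and 9.37 in C, 10.21 and 10.24 in M, 8.23 and 8.16 in LPS, and 9.55 and 9.80 in LPS+M. M was highest and LPS lowest, and C and LPS+M overlapped. The log2 difference was 0.75 ± 0.10 in M against C and -1.27 ± 0.10 in LPS against C. Klf4 rose by 1.48 ± 0.10 in LPS+M against LPS (adjusted p = 0.000121). Its level in LPS+M was then close to control (0.21 ± 0.10, not called, 95% interval -0.026 to 0.44). The log2 difference in LPS+M against M was -0.55 ± 0.10 (adjusted p = 0.0103), under the fold threshold, and without LPS+M replicate 2 it was -0.67 and was called. The second probe set of Klf4 gave 0.86 with menthol alone, -0.95 with LPS alone and 1.05 in LPS+M against LPS, each called. In LPS+M against M it gave -0.75, which was called where the main one was not. The interaction was 0.73 ± 0.14 by the main probe set and 0.20 ± 0.11 by the second, and neither was called.

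The Klf4 promoter held 9 KLF matches, 7 of them in a run that the capitals mark, and 49.5% of all windows hold at least 1. The stretch below (GRCm38.p6, chr4:55532646-55532705, minus strand) covers this run, and is shown because KLF proteins bind such GC-rich sequence and the promoter is that of a KLF gene. Several of the matches overlap each other.
Klf4: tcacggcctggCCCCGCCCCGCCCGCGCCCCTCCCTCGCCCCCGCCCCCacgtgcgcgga
The windows of Klf4 and Cebpa held no match for MEF2, PU.1, C/EBP or MAF letters.

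Klf6 was not called in any of the comparisons. It measured 11.14 and 11.01 in C, 10.84 and 10.59 in M, 11.06 and 11.07 in LPS, and 10.61 and 10.54 in LPS+M. The arrays with menthol lay below all arrays without it. The log2 difference was -0.36 ± 0.09 in M against C and -0.49 ± 0.09 in LPS+M against LPS (adjusted p = 0.0063), a fold of 1.41 that lies under the threshold of 1.5. LPS alone gave -0.0055 ± 0.090. The 5 probe sets of Klf6 ran from -0.61 to -0.22 in M against C and from -0.49 to -0.21 in LPS+M against LPS, with none called. Another Klf6 probe set measured 8.66 and 7.49 on the LPS arrays, a gap of 1.17 between duplicates.

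Maf was lowered by menthol and by LPS, and was lowest with both. It measured 11.54 and 11.49 in C, 10.87 and 10.89 in LPS, 10.14 and 9.98 in M, and 9.11 and 9.47 in LPS+M. The 4 groups stood in this order without overlap. Menthol alone gave a log2 difference of -1.46 ± 0.11, LPS alone -0.64 ± 0.11, and both treatments -2.23 ± 0.11. Maf fell by 1.59 ± 0.11 in LPS+M against LPS (adjusted p = 0.000129), and LPS on top of menthol lowered it further (fell by 0.77 ± 0.11, adjusted p = 0.00406). The interaction was -0.13 ± 0.16 (95% interval -0.51 to 0.24), and its sign turned in 2 of the alternative settings. The 4 probe sets of Maf above 4.84 ran from -1.81 to -1.46 in M against C, all called, and from -1.59 to -1.05 in LPS+M against LPS, 3 of them called. The probe set that was not called measured 6.23 and 5.06 on the LPS arrays. In LPS against C the 4 ran from -1.5 to -0.64, all called, and the main probe set gave the smallest difference. In LPS against M they ran from 0.28 to 0.82, and the main probe set was the 1 of 4 that was called. The other 2 probe sets of Maf lay between 2.09 and 2.51 on every array.

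Mef2a differed between arrays with and without LPS. It measured 12.29 and 12.21 in C, 12.14 and 12.17 in M, 11.71 and 11.65 in LPS, and 11.72 and 11.76 in LPS+M. All 4 arrays with LPS lay below all 4 without. The log2 difference was -0.57 ± 0.06 in LPS against C, a fold of 1.49 just under the threshold, and without C replicate 2 or LPS replicate 1 it was -0.61 or -0.60 and was called. LPS in the presence of menthol gave -0.41 ± 0.06 (adjusted p = 0.00462), under the fold threshold. The 4 probe sets of Mef2a ran from -0.63 to -0.41 in LPS against C, with 1 called, and from -0.64 to -0.41 in LPS+M against M, with 2 called (-0.59 and -0.64). Menthol gave -0.099 ± 0.063 without LPS and 0.060 ± 0.063 with LPS (adjusted p = 0.511), and the latter was -0.057 as the mean of all its probe sets.

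The Mef2a window is the other with the MEF2 letters. The match spans the transcription start (GRCm38.p6, chr7:67372841-67372870, minus strand), and the capitals mark it.
Mef2a: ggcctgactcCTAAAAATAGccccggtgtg
The same window held 2 PU.1 matches further upstream, and 13.6% of all windows hold at least 1.

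Mef2c fell with LPS, and its menthol difference depended on the probe set. The main probe set measured 10.34 and 10.00 in C, 9.73 and 9.47 in M, 9.30 and 8.60 in LPS, and 8.55 and 8.58 in LPS+M. The arrays without LPS lay above those with it, and the LPS arrays were 0.71 apart. The log2 difference was -1.22 ± 0.22 in LPS against C, and without C replicate 1 it was -1.05 and not called. Against M, the LPS+M level fell by 1.03 ± 0.22 (adjusted p = 0.0185). This call was lost without M replicate 1 (-0.90), M replicate 2 (-1.16), LPS+M replicate 1 (-1.02) or LPS+M replicate 2 (-1.05), and with no filter. Menthol gave -0.57 ± 0.22 without LPS, not called, and -0.38 ± 0.22 with LPS (adjusted p = 0.225). Without LPS replicate 2 the latter was -0.74 (adjusted p = 0.0242) and without LPS replicate 1 it was -0.031. The other 4 probe sets of Mef2c gave larger differences than the main one in both menthol comparisons. Over all 5, the range was -0.87 to -0.57 in M against C and -1.03 to -0.38 in LPS+M against LPS, with 3 called in each. The 5 ran from -1.22 to -0.69 in LPS against C and from -1.21 to -0.85 in LPS+M against M, with 4 called in each. As the mean of its probe sets, Mef2c was called in M against C (-0.73) and in LPS+M against LPS (-0.83).

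**Figure D2:**
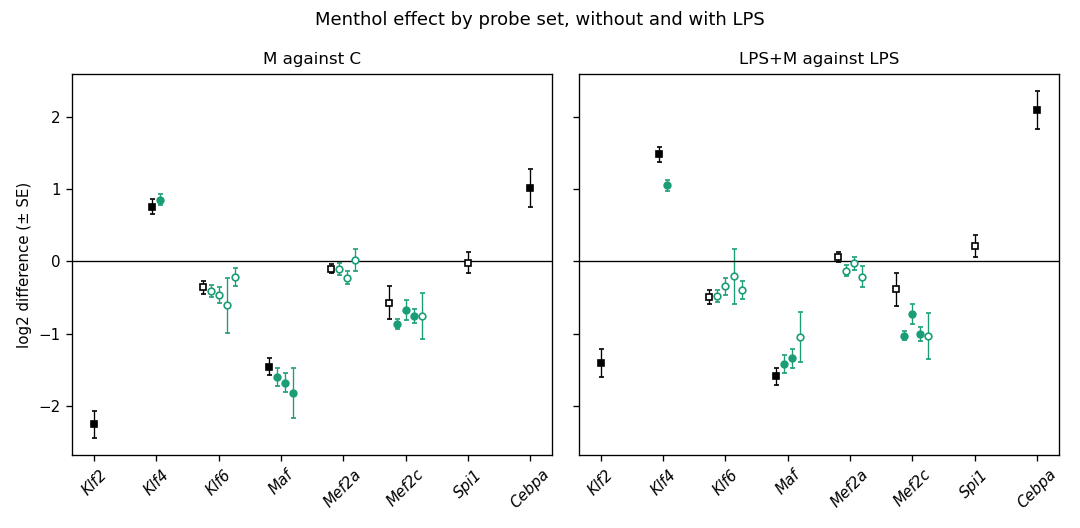
Log2 difference ± SE (y axis) of every probe set above 4.84, by gene (x axis), in M against C (left) and LPS+M against LPS (right). Squares are main probe sets, circles the other probe sets, and filled symbols passed the thresholds with p-values adjusted over probe sets. The 4 Maf probe sets lie between -1.81 and -1.05 in both panels and the 2 of Klf4 between 0.75 and 1.48, while no Klf6 or Mef2a probe set was called.

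Spi1 was not called in any comparison. It measured 11.86 and 11.85 in C, 11.85 and 11.82 in M, 12.32 and 11.83 in LPS, and 12.38 and 12.20 in LPS+M. Both LPS+M arrays lay above the C and M arrays, and LPS replicate 2 lay among the latter. The log2 difference was -0.016 ± 0.14 in M against C (95% interval -0.35 to 0.32). LPS alone gave 0.22 ± 0.14, which became 0.47 without LPS replicate 2 and -0.022 without LPS replicate 1. LPS with menthol present gave 0.46 ± 0.14 (adjusted p = 0.0743). Menthol with LPS gave 0.22 ± 0.14 (adjusted p = 0.292, 95% interval -0.11 to 0.55), or -0.028 without LPS replicate 2.

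Cebpa was higher with menthol and lowest with LPS alone. It measured 4.58 and 4.70 in C, 5.59 and 5.72 in M, 4.19 and 3.36 in LPS, and 5.66 and 6.08 in LPS+M. M and LPS+M overlapped, and every array with menthol lay above every array without it. The C and LPS arrays lay under 4.84. Cebpa rose by 2.10 ± 0.25 in LPS+M against LPS (adjusted p = 0.000978), with no filter the adjusted p was 0.0098, and without LPS replicate 2 the difference was 1.68 (adjusted p = 0.00149). The log2 difference with menthol alone was 1.02 ± 0.25. That call was lost with no filter and without any 1 of C replicate 1 (0.96), C replicate 2 (1.08), M replicate 1 (1.08) or M replicate 2 (0.95). With LPS alone it was -0.87 ± 0.25, a call lost under most alternatives, without C replicate 1 (-0.93), C replicate 2 (-0.81), either M array (-0.87) and LPS replicate 2 (-0.45) among them. LPS in the presence of menthol gave 0.21 ± 0.25 (adjusted p = 0.625, 95% interval -0.36 to 0.78). The interaction of 1.08 ± 0.35 was not called, and it was 0.67 without LPS replicate 2 and 1.5 without LPS replicate 1.

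**Figure D3:**
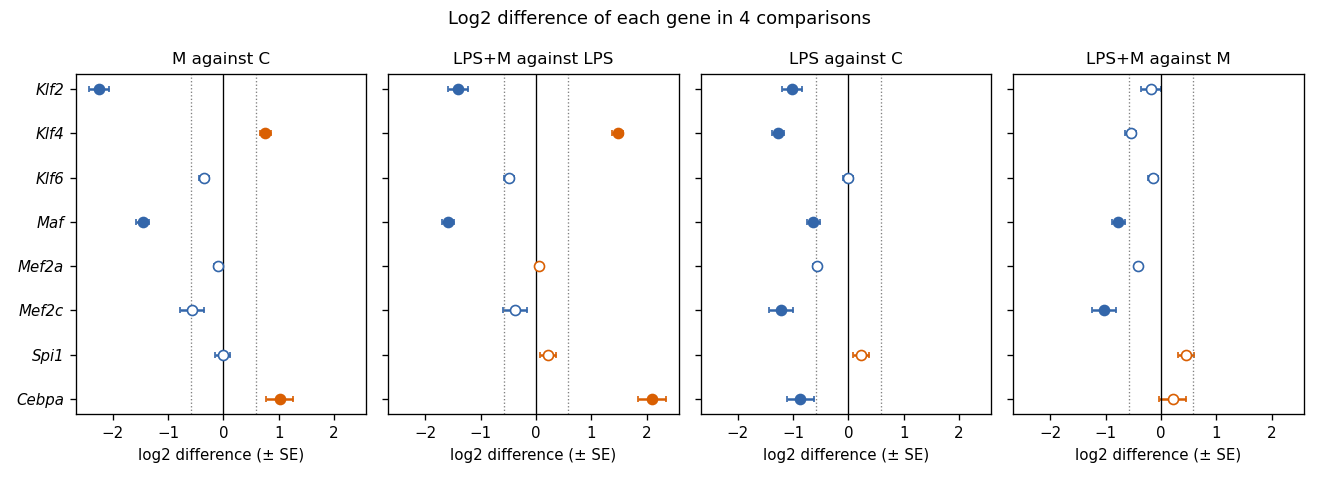
Log2 difference ± SE (x axis) of the 8 genes (rows) in 4 comparisons. Filled circles passed both thresholds, open ones did not, orange is higher and blue lower, and dotted lines mark a fold of 1.5. Klf4 was 1.48 in LPS+M against LPS and -1.27 in LPS against C, whereas Maf was lower in all 4.

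With no filter on low values, the calls for Klf2, Klf4 and Maf remained in M against C (3 of 8 genes, with 2.03% of 18193 genes called) and Cebpa was lost. Of the 8 genes, 2 were called in LPS+M against M (Maf and Mef2c, both lower), where 4.16% of all genes were called and 1.77% were called lower. In LPS+M against C, Klf2, Maf and Mef2c were lower and Cebpa was higher, with 9.83% of genes called. In LPS against M, Klf2 and Maf were higher and Klf4, Mef2c and Cebpa lower, with 11.3% of genes called. The Mef2c difference there was -0.65 ± 0.22, and it lost its call when any 1 array other than LPS replicate 1 was left out (-0.78 to -0.29). The 5 Mef2c probe sets ran from -0.65 to 0.17 in LPS against M, and none was called with p-values adjusted over probe sets. The median over the 8 genes was -0.23 in M against C, beside 0.021 over all genes tested, and -0.75 in LPS against C, beside -0.030. It was -0.16 in LPS+M against LPS, beside 0.028, and -0.29 in LPS+M against M, beside -0.027. In LPS+M against C it was -0.50, beside 0.0044, and in LPS against M -0.12, beside -0.055. The genes were taken as selected on their differences, so these medians describe them only.

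No interaction of menthol and LPS was called for the 8 genes by limma, where 0.236% of all genes were called. The interaction was positive for Klf2 (0.85 ± 0.25), Klf4 (0.73 ± 0.14) and Cebpa (1.08 ± 0.35). The 8 genes were taken as selected on M against C, which enters the interaction, so these values are a description only. For the other 5 genes the interaction lay between -0.13 and 0.23. In the main fit, the menthol effects with and without LPS were thus not shown to differ for any of the 8 genes at this number of arrays. With trended and robust variances the Klf4 interaction was called, and the size of the Klf2 interaction depended on which C array was left out.

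**Figure D4:**
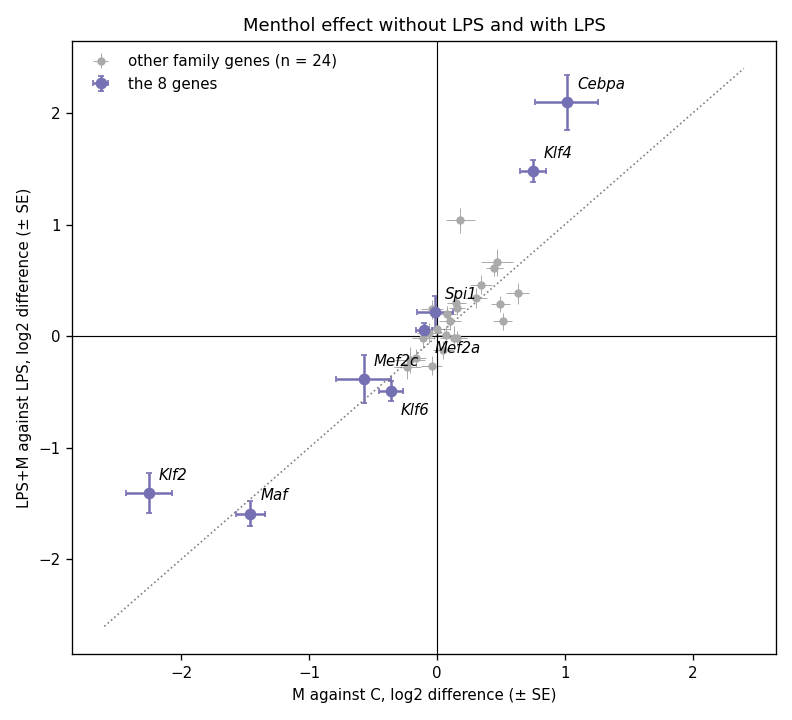
Log2 difference ± SE for M against C (x axis) against LPS+M against LPS (y axis), which share no arrays, for the 8 genes (purple) and 24 other tested genes of the KLF, MAF, MEF2, ETS and C/EBP families (grey). The dotted line marks equal differences. Klf2 and Maf lie at the lower left (-2.25 and -1.46 on the x axis), Klf4 and Cebpa at the upper right (1.48 and 2.10 on the y axis), and most other family genes lie near 0.

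The relatives of the 8 genes were described from lists written by family. Of 14 other KLF genes, 6 were tested. None was called by limma in M against C (median 0.23), although 3 were higher at an unadjusted p under 0.05, and the methods' t-test called none. Of all genes tested, 34.8% had an unadjusted p under 0.05 in M against C and 40.9% in LPS+M against LPS, and counts at that level are to be read beside these shares. With LPS present, menthol raised 1 of the 6, where 6.71% of all genes tested were called, beside 4.55% in M against C. This gene, Klf13, measured 9.57 and 9.39 in LPS and 10.34 and 9.95 in LPS+M, and rose by 0.66 ± 0.12 (adjusted p = 0.00646). The call was lost without LPS replicate 2 or LPS+M replicate 1, and as the mean of its probe sets. Of the 3 other MAF genes tested, which encode small MAF proteins without an activation domain, 1 was called. Maff measured 4.28 and 4.59 in C, 4.62 and 4.62 in M, 4.66 and 4.70 in LPS, and 5.61 and 5.83 in LPS+M. The LPS+M arrays stood above all 6 others, and Maff passed the filter through these 2 arrays only. With no filter, it rose by 1.04 ± 0.11 in LPS+M against LPS (adjusted p = 0.00548) and by 1.10 ± 0.11 in LPS+M against M (adjusted p = 0.00662). Mef2d, the only other MEF2 gene tested, rose by 0.63 ± 0.09 in M against C (adjusted p = 0.00328), from 7.87 and 7.99 to 8.57 and 8.56. Its call was lost without C replicate 1 and as the mean of its probe sets.

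Of the 3 other C/EBP genes tested, Cebpb and Cebpd were called higher with LPS alone, and Cebpg was called higher in LPS+M against LPS. Of all genes tested, 6.13% were called in LPS against C, 6.71% in LPS+M against LPS and 4.16% in LPS+M against M. Cebpd, an LPS-responsive member of the family, measured 9.71 and 9.79 in C, 10.24 and 10.28 in M, 11.09 and 11.03 in LPS, and 11.28 and 11.11 in LPS+M. LPS alone raised it by 1.31 ± 0.08 (adjusted p = 2.71e-05), and LPS with menthol present by 0.93 ± 0.08 (adjusted p = 0.000203). Cebpb, a partner of NF-kB at cytokine genes, rose by 0.68 ± 0.07 with LPS alone (adjusted p = 0.000547). Cebpg, a family member that forms heterodimers, rose by 0.61 ± 0.07 in LPS+M against LPS (adjusted p = 0.000669). In M against C all 3 were higher at an unadjusted p under 0.05 (0.45 to 0.51) but none reached the fold threshold in limma, and the methods' t-test called none. As means of probe sets, Cebpg in LPS+M against LPS and Cebpd in LPS+M against M were not called. Of 11 other ETS genes tested, the family of Spi1, none was called in either menthol comparison. At an unadjusted p under 0.05 there were 1 in M against C and 6 in LPS+M against LPS, and the methods' t-test called none in either. Etv5 fell by 0.90 ± 0.12 with LPS alone (adjusted p = 0.00144) and by 0.91 ± 0.12 with LPS when menthol was present (adjusted p = 0.00197), and Elk3 fell by 0.67 ± 0.11 in the latter case (adjusted p = 0.00513). As the mean of its probe sets Etv5 was not called with LPS alone, and without LPS+M replicate 1 the latter count of 2 was 1.

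**Figure D5:**
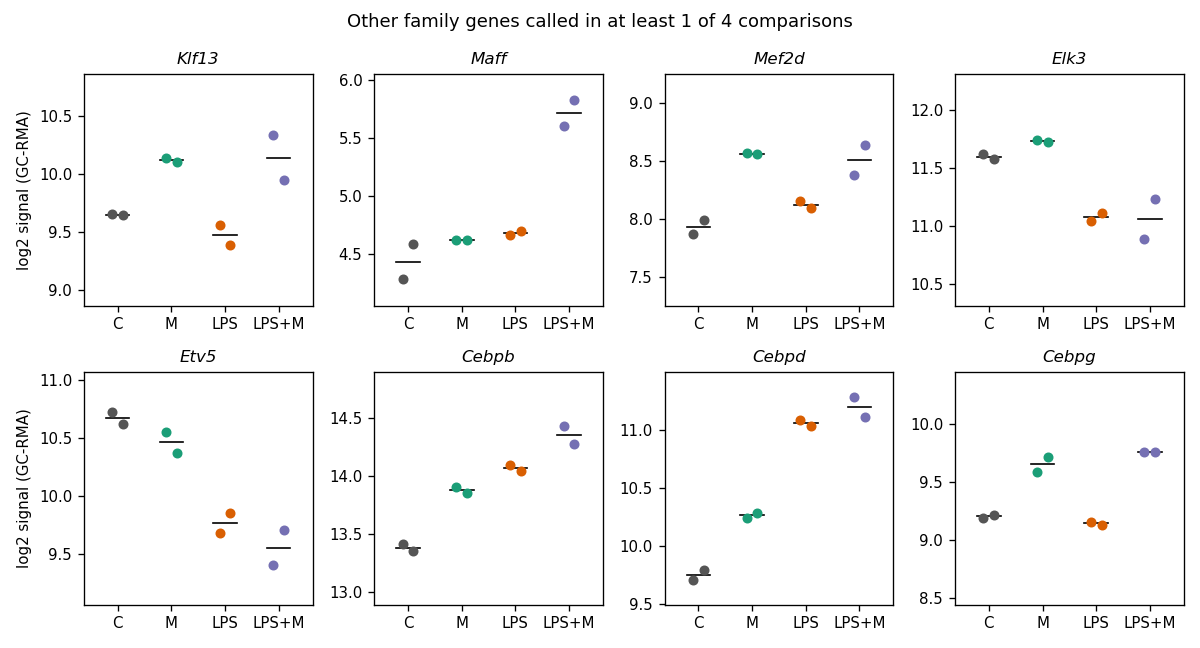
Log2 signal (y axis, a span of 2 in every panel) of the 8 other family genes called in at least 1 of M against C, LPS against C, LPS+M against LPS and LPS+M against M. Points are arrays and lines are group means of C, M, LPS and LPS+M (x axis). Cebpd was highest on the 4 arrays with LPS, and Maff was highest on the 2 LPS+M arrays, at 5.61 and 5.83.

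Among other transcription factors of the macrophage lineage, Runx3 was called in the directions of Klf4. Of 17 tested, 1 was higher in M against C (median 0.10) and 3 were lower in LPS against C (median -0.13). In LPS+M against LPS, 2 were higher and 2 lower (median 0.13). Of all genes tested, 4.55% were called in M against C, 2.96% were called lower in LPS against C, and 6.71% were called in LPS+M against LPS. The medians over all genes tested were 0.021, -0.030 and 0.028 in these comparisons. Runx3, a Runt-domain factor, measured 6.77 and 6.82 in C, 7.54 and 7.53 in M, 5.95 and 5.60 in LPS, and 7.01 and 7.19 in LPS+M. The groups did not overlap, with M highest and LPS lowest. Menthol alone raised it by 0.74 ± 0.11 (adjusted p = 0.00445), with LPS alone it fell by 1.02 ± 0.11 (adjusted p = 0.000728), and it rose by 1.33 ± 0.11 in LPS+M against LPS (adjusted p = 0.000274). The call with menthol alone was lost as the mean of its probe sets. Egr1, an immediate early gene and the only one of 3 tested MEF2 targets called in these comparisons, fell by 0.77 ± 0.11 with LPS (adjusted p = 0.00184) and rose by 1.26 ± 0.11 in LPS+M against LPS (adjusted p = 0.000239). Id1, an inhibitor of helix-loop-helix factors, fell by 0.69 ± 0.07 with LPS (adjusted p = 0.000436). Mitf and Tfeb, related regulators of lysosomal genes, fell in LPS+M against LPS by 0.78 ± 0.08 (adjusted p = 0.000587) and 0.66 ± 0.13 (adjusted p = 0.00754). Tfeb lay above 4.84 on only 6 of the 8 arrays, and with no filter its limma adjusted p in LPS+M against LPS was 0.0348. As means of probe sets, 2 of these 17 genes were called in that comparison in place of 4.

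Known regulators and targets of the 8 factors were read beside the 4.55% and 6.71% of all genes called in M against C and in LPS+M against LPS. The 8 tested regulators of MEF2 included MEK5-ERK5 kinases and class IIa histone deacetylases. Limma called none of the 8 in M against C or in LPS+M against LPS. At an unadjusted p under 0.05, 3 were higher in each, and the methods' t-test called none in either. With the mean of probe sets, 1 was called in the second. Of 4 tested targets of KLF2 or KLF4, 1 was called in each. This gene, Cdkn1a, encodes the cell cycle inhibitor p21 and measured 11.91 and 11.93 in C, 12.57 and 12.57 in M, 11.48 and 11.43 in LPS, and 12.52 and 12.43 in LPS+M. It rose by 0.65 ± 0.06 in M against C (adjusted p = 0.000609) and by 1.02 ± 0.06 in LPS+M against LPS (adjusted p = 6.68e-05). In the latter, 2 of the 4 were called without LPS replicate 1, LPS replicate 2 or LPS+M replicate 1. Thbd, which encodes the anticoagulant receptor thrombomodulin, fell by 1.22 ± 0.11 with LPS alone (adjusted p = 0.000191). S1pr1, a lipid receptor of cell migration, fell by 0.65 ± 0.14 there (adjusted p = 0.0136). Of all genes tested, 2.96% were called lower in LPS against C. The count of 2 in that comparison was 1 without C replicate 1, C replicate 2 or LPS replicate 2, and with no filter.

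Of 14 tested myeloid targets of PU.1 or C/EBP alpha, limma and the methods' t-test called none in the menthol comparisons, with 2 and 5 at an unadjusted p under 0.05. Without LPS+M replicate 2, 1 was called in the second. With LPS, Cybb, a subunit of the phagocyte oxidase, rose by 1.03 ± 0.08 (adjusted p = 9.02e-05). The Fc receptor genes Fcgr1 and Fcgr3 fell by 0.89 ± 0.10 (adjusted p = 0.00085) and 0.89 ± 0.10 (adjusted p = 0.000566). Of all genes tested, 6.13% were called in LPS against C.

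The genes most like Klf2 and Maf were sought among kept genes with at least 0.5 of their SD over the 8 arrays. For Maf, among 467 genes, they were Frmd4b (r = 0.995), Mcm4 (0.991), Uhrf1 (0.983), Eya4 (0.982) and Ung (0.980). Mcm4 encodes a subunit of the replicative helicase, Uhrf1 a factor of maintenance DNA methylation and Ung a uracil DNA glycosylase. Mcm4 had group means of 11.53 in C, 11.06 in LPS, 10.77 in M and 10.32 in LPS+M, the order of Maf. For Klf2, among 308 genes, they were Maf (r = 0.946), Gm20300 (0.936), Cirbp (0.927), Rgs18 (0.915) and Eya4 (0.901). The 8 arrays are 4 groups of 2, so each r describes the 4 group means.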

How the data were processed

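The authors deposited log2 values of 8 Affymetrix mouse arrays, made per the labels with the GCRMA package (2.10.0, under R 2.6.1), which corrects background by probe GC content and quantile normalizes between arrays. Here R 4.3.3 and limma 3.58.1 (lmFit and eBayes) were used on these values, with 1 coefficient for each group, 4 residual degrees of freedom and p-values adjusted by Benjamini-Hochberg within each comparison. Duplicates are labelled as biological replicates, without a statement that they came from separate cultures, so p-values measure only the spread between arrays, which may be technical. Control probe sets (64) and those with several symbols (932) or none (9160) were left out. The genes and lists were chosen with earlier results of these data known. The text names all 8 genes, up to 4 called genes of a list with the largest difference, any gene of a list under 7 genes and the 5 genes most like Klf2 and Maf. The alternatives were other filters, probe set summaries, normalizations, variances, fold minimums, a replicate block, leaving out each array, and the methods' t-test. A shift of the kept genes to 1 median was added after seeing the data. The results for 1 list of target genes are not reported here.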

Additional observations from a re-analysis of the deposited data

How the results depend on the processing

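Of 1208 recomputed differences of the 8 genes, 1097 kept their direction and their side of the threshold, 81 lost a call, 19 gained one and 11 changed sign, all 11 in values that were not called. Of the 8 genes, those called in M against C, LPS against C, LPS+M against LPS, LPS+M against M, LPS+M against C and LPS against M numbered 4, 5, 4, 2, 4 and 5. With the methods' t-test they were 2, 2, 2, 0, 1 and 2 unadjusted and 0 in all 6 after Benjamini-Hochberg adjustment, which also called 0 of 8908 genes. At a fold minimum of 2, LPS against C had 3, LPS+M against M 1 and LPS against M 3. With no fold minimum LPS+M against M had 4 and LPS+M against C 7, with no filter LPS+M against M had 1, and with the mean of probe sets LPS against M had 3. Trended and robust variances gave 1 interaction (Klf4). Leaving out 1 array gave 3 to 6 in LPS against C, 1 to 2 in LPS+M against M and 0 to 1 in the interaction. The lone array of a group is then assumed to vary like the others. The signs that changed with 1 array left out were, in LPS against C, those of Klf6 (-0.071 to 0.060, positive without C replicate 1) and Spi1 (-0.022 to 0.47, negative without LPS replicate 1). For Spi1 they were also those in LPS+M against LPS (-0.028 to 0.46, negative without LPS replicate 2) and LPS against M (-0.0066 to 0.48, negative without LPS replicate 1). In the interaction they were Maf (-0.31 to 0.046, positive without LPS+M replicate 1), and Mef2c (-0.16 to 0.54) and Spi1 (-0.012 to 0.48), both negative without LPS replicate 2. With the mean of probe sets, Mef2a in LPS+M against LPS became -0.057, and the interactions of Klf6, Maf and Mef2c became 0.028, 0.19 and -0.11. The causes were not tested.

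The correlations of the duplicate differences between groups ran from -0.12 to 0.19. Low correlations cannot exclude that equal replicate numbers were handled together, so a fit with a replicate block is given beside the main one. The replicate block gave 4, 4, 4, 2, 4 and 5 called members in the 6 comparisons and 0 interactions, with Cebpa lost in LPS against C. Over all genes, M against C had 405 calls, 253 with the mean of probe sets, 1934 with no fold minimum, 85 at a fold minimum of 2 and 254 with the methods' t-test unadjusted. LPS against C had 546, and then 1935, 184 and 349 for the last 3. LPS+M against LPS had 598, and then 371, 2560, 136 and 288. LPS+M against M had 371, and 1268, 136 and 217 for the last 3. After a shift of the kept genes to 1 median on every array, a setting added after seeing the data, the share of calls that were higher in M against C was 53.4% in place of 66.2%. The number of arrays, 2 for a group, limits the precision, and Klf2 with menthol and Cebpa without it lay below the mean of all probe sets.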
